A study of Homo sapiens with 14 samples.

Results

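The comparison described here set A549 cells that had received an empty vector and a control siRNA against A549 cells that had received nothing. A549 is an established human lung carcinoma line grown as adherent cells in RPMI-1640 medium with fetal bovine serum. Libraries were chosen by their titles, which gave 2 vector-control libraries and 2 untreated libraries, replicates 1 and 2 of each, or 4 of the 14 libraries of the series. All 14 libraries came from total RNA of the same line, and none of these 4 carried a U2AF1 construct or a siRNA against U2AF1. The other 10 libraries, in 5 groups of 2, had a siRNA against U2AF1, in 1 group with the empty vector and in the others with U2AF1 constructs (v1 or v3, each as WT or S34F). According to the labels constructs were delivered by virus, and no dose, time or control siRNA sequence was found in the labels. Vector, virus and siRNA were given together, so their shares in any difference cannot be told apart.

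The comparison asks what the delivery procedure itself does to these cells, since it is the baseline for every other group of the study. Foreign RNA or DNA in a cell can be read by innate sensors that switch on interferon and NF-kB genes, and damage or growth stress can activate p53, a transcription factor that halts the cell cycle through CDKN1A and can start apoptosis. CDKN1A blocks cyclin-dependent kinases, which keeps the DREAM repressor complex on the promoters of mitotic genes. A549 cells keep wild-type p53 and have lost the CDKN2A locus.

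The untreated and vector-control libraries were of like depth, with a relative depth of 0.952 to 1.10, and 13993 to 14462 genes per library reached 1 FPKM (fragment density along the transcript, normalised to library size). Replicates were correlated across genes at 0.972 in untreated and 0.977 in vector-control cells on the log2 scale. A549 markers were present, with 10 of the 12 listed at 1 FPKM or more in each library, while the deleted CDKN2B was listed at 0 in all 4 and CDKN2A at 0 in 3 of them. Markers of differentiated lung summed to between 13.6 and 27.9 FPKM, most of it the mucin MUC5AC, and SFTPA1, SFTPA2 and SCGB1A1 were listed at 0 in all 4. Fibroblast markers summed to 10.4 to 16.3 FPKM and leukocyte and endothelial markers to 16.0 to 31.7 FPKM, with DCN and KDR at 0 in all 4. U2AF1, which is the target in the other groups, had an FPKM of 128 and 143 in untreated and 117 and 119 in vector-control cells. That is a difference of -0.19 (SE 0.31) on the log2 scale with a limma adjusted p of 0.999, whereas the other 10 libraries ranged from 16.2 to 3852. The libraries stood apart in transcripts of the mitochondrial genome, which made up 6.61% and 10.4% of the summed FPKM in untreated replicates 1 and 2, and 6.59% and 3.42% in vector-control replicates 1 and 2. Values of single libraries, or of each pair of libraries with the same replicate number, are therefore given for many of the results.

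Of 14233 genes tested, none passed an adjusted p of 0.05 in limma without a replicate term, which is 0.0% in each direction. At an unadjusted p under 0.05 there were 730 genes (5.13%), 358 higher in vector-control cells and 372 lower. With the replicate number as a block, 2 genes passed and both were higher in vector-control cells (0.0141% of genes, against 0.0% lower), and 1604 genes (11.3%) had an unadjusted p under 0.05. The 2 genes were CDKN1A and GDF15. Nothing in the labels says whether the replicates are separate cultures, and the p-values therefore reflect the spread of these samples alone, which may be technical. With 2 libraries against 2, an exact two-sided permutation test of a single gene cannot give a p below 0.333.

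CDKN1A encodes p21, the inhibitor of cyclin-dependent kinases through which p53 stops the cell cycle, and lies on chromosome 6 at 36644305 to 36655116 (GRCh37). Its level was 52.9 and 42.6 FPKM in untreated replicates 1 and 2, and 94.0 and 97.0 FPKM in the vector-control replicates. Both vector-control libraries were above both untreated ones. The mean ratio was 2.00, and the difference on the log2(FPKM + 1) scale was 0.99 (SE 0.15, adjusted p = 0.207, and 0.0464 with the replicate block). Over the alternatives tried its adjusted p ran from 0.0464 to 1.0. GDF15 encodes a secreted stress cytokine of the TGF-beta superfamily and lies on chromosome 19 at 18485541 to 18499986. Its level was 27.4 and 19.9 FPKM in untreated cells, and 57.0 and 40.2 FPKM in vector-control cells. Again the groups did not overlap, and the log2 difference was 1.00 (SE 0.23, adjusted p = 0.733, and 0.0464 with the block, with a range of 0.0464 to 1.0 over the alternatives). The bases upstream of both start sites are shown because these 2 genes carry the called difference. They are from the RefSeq promoter table (GRCh38.p14), read 5′ to 3′ on the gene's strand, and capitals mark GGGCGG on either strand, the core of the GC box bound by SP1, with overlapping matches included.
CDKN1A, chr6:36678514-36678713, plus strand: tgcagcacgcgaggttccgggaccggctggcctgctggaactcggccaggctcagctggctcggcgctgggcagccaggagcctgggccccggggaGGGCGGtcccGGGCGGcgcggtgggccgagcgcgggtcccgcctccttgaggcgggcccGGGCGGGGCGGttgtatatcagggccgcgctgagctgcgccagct
GDF15, chr19:18385958-18386157, plus strand: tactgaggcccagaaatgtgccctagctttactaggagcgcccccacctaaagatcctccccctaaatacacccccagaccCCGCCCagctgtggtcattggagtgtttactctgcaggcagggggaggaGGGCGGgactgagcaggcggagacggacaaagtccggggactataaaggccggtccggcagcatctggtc
GGGCGG occurred 4 times in the CDKN1A stretch and 2 times in that of GDF15. It is also in 44.95% of all 35116 promoter windows of 300 bases in that table, so its presence does not set these promoters apart.

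**Figure D1:**
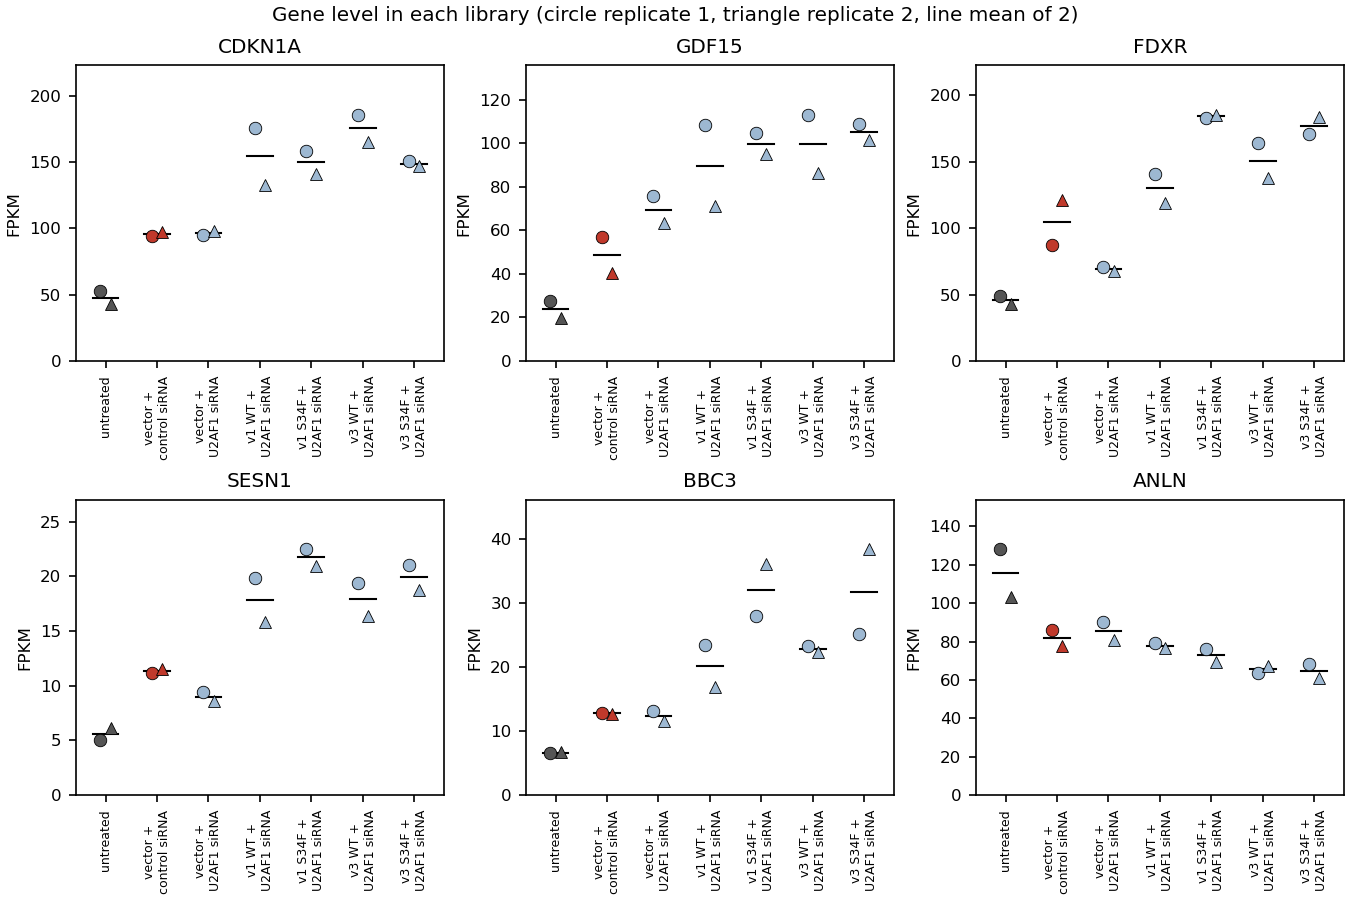
Level in FPKM (vertical axis, from 0) of 6 genes in each of the 14 libraries, grouped along the horizontal axis, with a circle for replicate 1, a triangle for replicate 2 and a line at the mean of 2. Untreated libraries are grey, vector-control libraries red and the other groups blue. CDKN1A stood at 42.6 to 52.9 in untreated and 94.0 to 97.0 in vector-control cells, BBC3 stood at 6.53 to 6.77 in untreated and 12.7 to 12.8 in vector-control cells, and ANLN was lower there than in untreated cells.

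CDKN1A and GDF15 were part of a wider pattern among p53 targets, a list of 46 genes of which 45 passed the filter on low values. Of these, 41 were higher in vector-control cells and 4 were lower, where 45.9% of all genes tested were higher and 53.8% lower. In 35 of the 45 genes both vector-control libraries were above both untreated ones, against 12.8% of all genes, and 0 were the other way round, against 16.5%. At an unadjusted p under 0.05, 27 were higher and 0 lower, against 2.52% and 2.61% of all genes. The median log2 difference was 0.49, where that of all genes was -0.02, and it was 0.46 in the pair of replicate 1 and 0.53 in the pair of replicate 2. In the pair of replicate 1 alone, where the mitochondrial share was 6.61% and 6.59%, 41 of 45 members were higher. In RNA from bulk cells, more cells with an active gene and more RNA per cell cannot be told apart.

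Genes of cell cycle arrest gave the largest differences, with 8 of 8 higher, 7 of them without overlap, and a median of 0.88 on the log2 scale. BTG2, an antiproliferative factor, had 5.17 and 8.12 FPKM in untreated and 13.0 and 14.8 FPKM in vector-control cells. SESN1, a sestrin that restrains mTORC1, had 5.08 and 6.11 against 11.1 and 11.5 FPKM, a log2 difference of 0.91 (SE 0.15, adjusted p = 0.241, 0.0563 with the block). Its relative SESN2 had 3.38 and 4.19 against 7.59 and 7.60 FPKM. Each of these stood at about the same level in both vector-control libraries. GADD45A, a growth arrest and repair gene, had 19.5 and 17.5 against 43.3 and 30.8 FPKM. CCNG1, a cyclin that acts in p53 feedback, had 52.4 and 57.5 against 84.2 and 75.6 FPKM. SFN, the epithelial 14-3-3 protein that holds back mitotic entry, differed by 0.39 (SE 0.31) and PLK3, a stress kinase whose libraries overlapped between groups, by 0.32 (SE 0.37).

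Among apoptosis and survival genes 10 of 11 were higher, 9 without overlap, with a median of 0.42. BBC3, the BH3-only protein PUMA, had 6.53 and 6.77 FPKM in untreated and 12.8 and 12.7 FPKM in vector-control cells, and BAX, the pore-forming effector that PUMA releases, had 168 and 176 against 231 and 329 FPKM. The death receptors FAS and TNFRSF10B differed by 0.74 (SE 0.17) and 0.65 (SE 0.14) on the log2 scale. FAS had 10.7 and 12.1 against 22.2 and 17.6 FPKM, and TNFRSF10B 72.0 and 93.9 against 129.5 and 130.3 FPKM. PMAIP1 (NOXA) was above the untreated libraries in both, but by 0.06 in the pair of replicate 2 against 0.66 in that of replicate 1. PIDD, which builds a caspase platform, had 10.1 and 15.4 against 9.07 and 16.4 FPKM, so its groups overlapped, and TP53AIP1 was under 0.2 FPKM in all 4 libraries and was not tested.

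All 5 DNA repair members were higher without overlap, with a median of 0.39. RRM2B, the p53-dependent ribonucleotide reductase subunit that supplies nucleotides outside S phase, had 24.1 and 20.1 FPKM in untreated and 37.6 and 35.4 FPKM in vector-control cells. XPC and DDB2, damage sensors of nucleotide excision repair, differed by 0.46 (SE 0.21) and 0.35 (SE 0.16), and POLH, a translesion polymerase, by 0.39 (SE 0.18). The 7 feedback genes were higher in every case, 6 without overlap, with a median of 0.50. PHLDA3, an inhibitor of AKT signalling, had 48.2 and 43.6 against 75.2 and 99.5 FPKM, a log2 difference of 0.90 (SE 0.14, adjusted p = 0.237, 0.0563 with the block). MDM2, the ubiquitin ligase that degrades p53, had 53.3 and 64.4 against 73.0 and 95.05 FPKM, a difference of 0.50 with an SE of 0.41. ZMAT3 and RPS27L differed by 0.55 (SE 0.21) and 0.49 (SE 0.12).

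Metabolic and redox members were the least uniform of the p53 groups, with 5 of 7 higher, 3 without overlap and a median of 0.10. FDXR, the mitochondrial ferredoxin reductase, lay at the top of the whole list with 48.9 and 43.1 FPKM in untreated and 87.4 and 121 FPKM in vector-control cells. Its log2 difference was 1.15 (SE 0.16, adjusted p = 0.207, 0.0563 with the block). C12orf5 (TIGAR), a fructose bisphosphatase that slows glycolysis, had 28.2 and 29.5 against 42.8 and 45.3 FPKM, and APAF1, the apoptosome scaffold filed in this group, differed by 0.49 (SE 0.18). GLS2, a mitochondrial glutaminase, was lower in both pairs with a difference of -0.24 (SE 0.38), and SCO2, CPT1C and PRKAB1 had opposite signs in the 2 pairs. Among secreted and surface members 6 of 7 were higher, 5 without overlap. PLAUR, the urokinase receptor, had 16.5 and 16.2 against 25.8 and 23.5 FPKM. TGFA was an exception, with 3.34 and 8.52 in untreated and 4.73 and 4.13 FPKM in vector-control cells, so that its sign turned between the pairs.

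**Figure D2:**
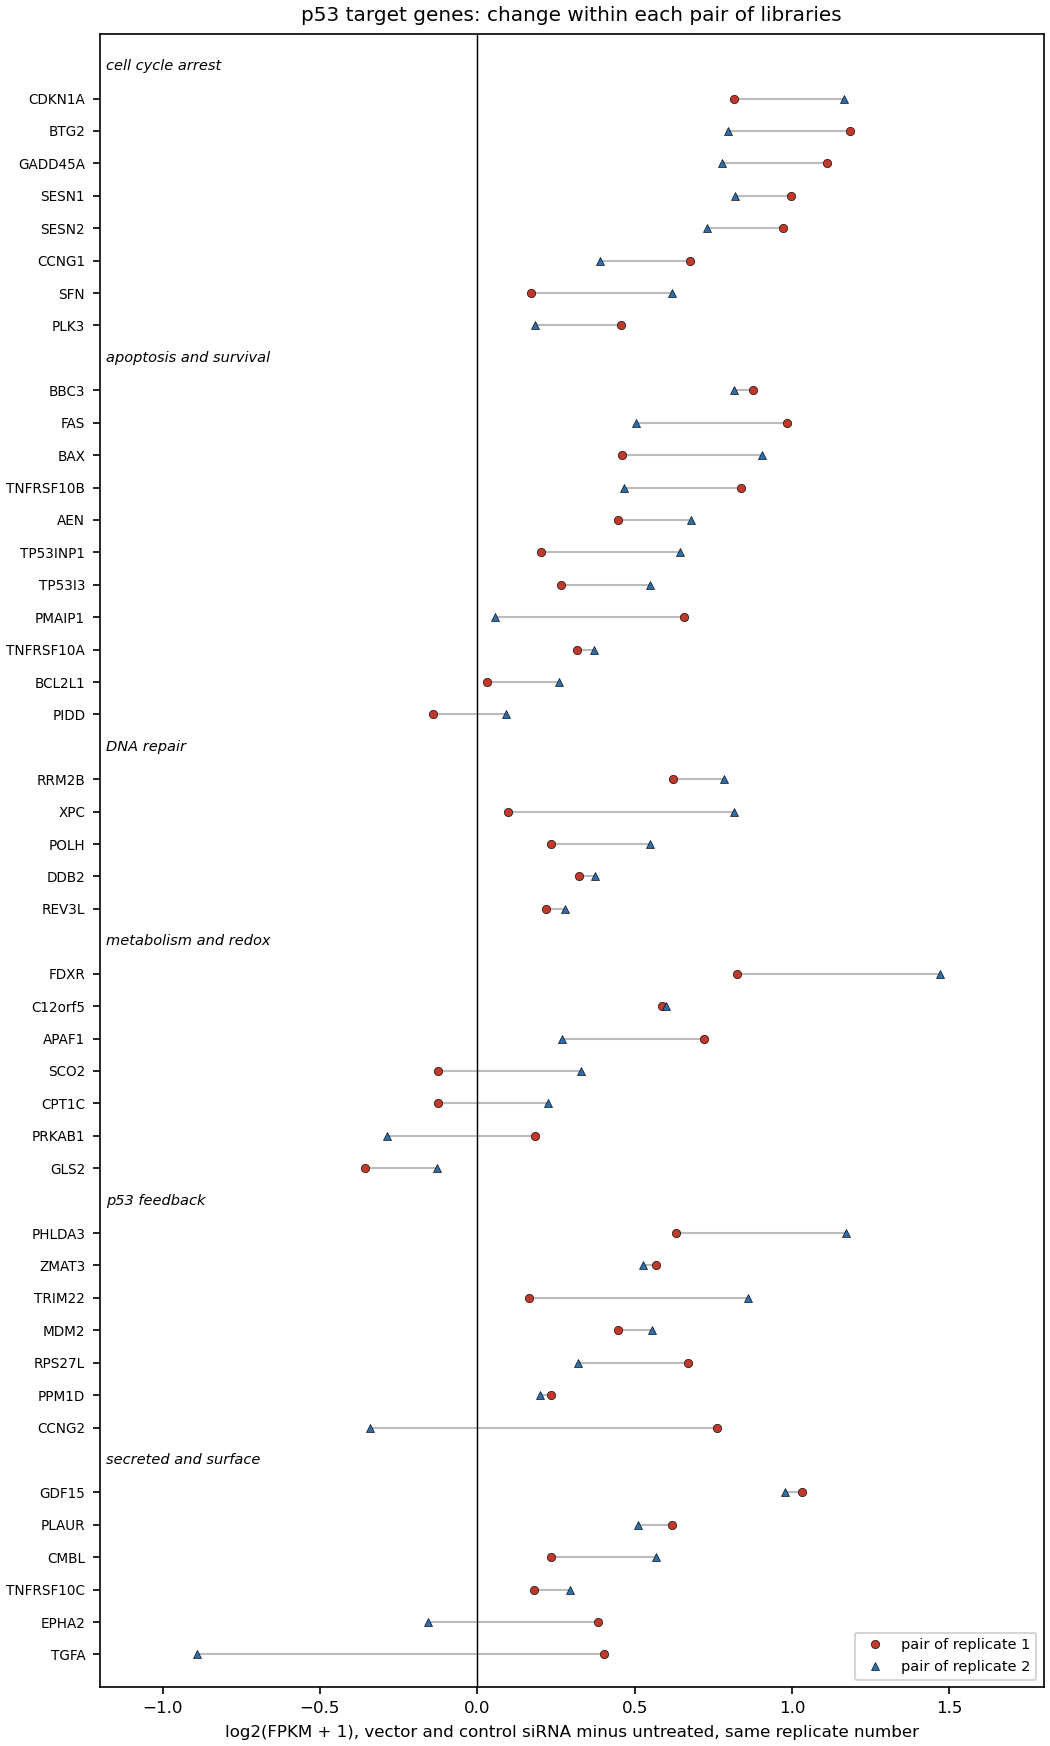
Difference in log2(FPKM + 1) between the vector-control and the untreated library of the same replicate number (horizontal axis) for the p53 targets tested, 1 of them not shown, by role, with circles for replicate 1 and triangles for replicate 2. Most points lie right of 0 in both pairs, and the exceptions are PIDD, SCO2, CPT1C, PRKAB1, GLS2, CCNG2, EPHA2 and TGFA.

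The promoters of these genes were searched for the p53 half-site consensus on both strands. RefSeq windows (GRCh38.p14), from 250 bases before to 50 bases after the start, were found for 32 of the 45 genes. Sites outside these windows could not be found by this search. The half-site was present in 6 of 48 windows, against 6.63% of all windows in the table. The 6 genes were SESN1, FAS, RPS27L, AEN, DDB2 and FDXR, and 5 stretches that lie upstream of the start are shown, with the half-site in capitals and the strand of the gene. These half-sites are matches of letters and not measured binding.
SESN1, chr6:109009003-109009062, minus strand: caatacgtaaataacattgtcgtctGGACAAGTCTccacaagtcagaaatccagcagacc
FAS, chr10:88991284-88991343, plus strand: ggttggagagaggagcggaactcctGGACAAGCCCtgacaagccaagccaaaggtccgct
RPS27L, chr15:63157502-63157561, minus strand: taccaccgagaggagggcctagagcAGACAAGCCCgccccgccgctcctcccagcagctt
AEN, chr15:88621281-88621339, plus strand: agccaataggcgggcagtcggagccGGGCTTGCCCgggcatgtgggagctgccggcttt
FDXR, chr17:74872995-74873030, minus strand: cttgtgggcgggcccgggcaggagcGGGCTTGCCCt
All 5 had both vector-control libraries above both untreated ones, as had 35 of the 45 p53 targets and 12.8% of all genes. AEN, an exonuclease of the apoptotic response, had 37.1 and 37.2 FPKM in untreated and 51.0 and 60.3 FPKM in vector-control cells. RPS27L, a ribosomal protein paralogue that acts on p53 turnover, had 189.6 and 220.2 against 302 and 275 FPKM.

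The 45 p53 targets had 135 isoforms with a mean usage of at least 5% of their gene's FPKM. Of the 124 tested for usage none was called and 8 had an unadjusted p under 0.05, close to the 5.14% of all isoforms tested. The main CDKN1A isoform, ENST00000244741, made up 94.8% and 91.9% of the gene in untreated and 93.6% and 83.9% in vector-control cells. For GDF15 the isoform ENST00000252809 made up at least 97.2% in each of the 4 libraries. In MDM2 a short isoform of 845 bases, ENST00000539479, was used at 0.263% and 5.60% in untreated and 13.6% and 16.5% in vector-control cells, and at 11.2% to 18.4% in the other 10 libraries. In RRM2B the isoform ENST00000395912 went from 5.33% and 10.4% to 21.7% and 29.7%. In the other 10 libraries it was used at 7.45% to 25.6%, a range that overlapped the untreated values. In SESN1 the isoform of 3509 bases, ENST00000436639, made up 27.5% and 20.3% in untreated and 15.5% and 12.7% in vector-control cells. Its own FPKM was slightly higher without overlap (1.40 and 1.24 against 1.73 and 1.47).

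Genes of the G2/M phase and mitosis were lower in vector-control cells throughout the list. All 33 members were tested and 33 were lower, 28 of them with both vector-control libraries below both untreated ones, against 16.5% of all genes. The differences were small, with a median of -0.28 on the log2 scale (-0.34 in the pair of replicate 1 and -0.20 in the pair of replicate 2) and a range of -0.49 to -0.11. At an unadjusted p under 0.05 there were 17, against 2.61% of all genes, and none was called. In the pair of replicate 1 all 33 were lower, and in that of replicate 2 all but PRC1, FOXM1, CDC25B and BIRC5.

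The spindle, kinetochore and cytokinesis genes had the largest differences, with 11 of 13 free of overlap and a median of -0.33. ANLN, the anillin scaffold of the cleavage furrow, had 128 and 103 FPKM in untreated and 85.9 and 77.7 FPKM in vector-control cells, a log2 difference of -0.49 (SE 0.13, adjusted p = 0.747). KIF20A, a kinesin of the central spindle, had 63.5 and 54.0 against 42.2 and 41.7 FPKM, and CENPA, the centromeric histone, 52.9 and 52.3 against 41.7 and 39.6 FPKM. The untreated and vector-control values of CENPA were tight within each group. KIF11 and KIF23, motors of spindle poles and midzone, differed by -0.30 (SE 0.11) and -0.32 (SE 0.10). All 11 cyclins and kinases were lower without overlap. BUB1B, a checkpoint kinase, had 57.3 and 43.5 against 34.9 and 37.9 FPKM, CCNB2, a mitotic cyclin, 101 and 92.7 against 85.1 and 71.8 FPKM, and AURKB, the chromosomal passenger kinase, 125 and 154 against 97.7 and 117 FPKM. Among exit and regulation genes 6 of 9 were free of overlap. CDC20, the activator of the anaphase-promoting complex, had 141 and 144 against 114 and 119 FPKM, and MKI67, the Ki-67 antigen, differed by -0.36 (SE 0.17).

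**Figure D3:**
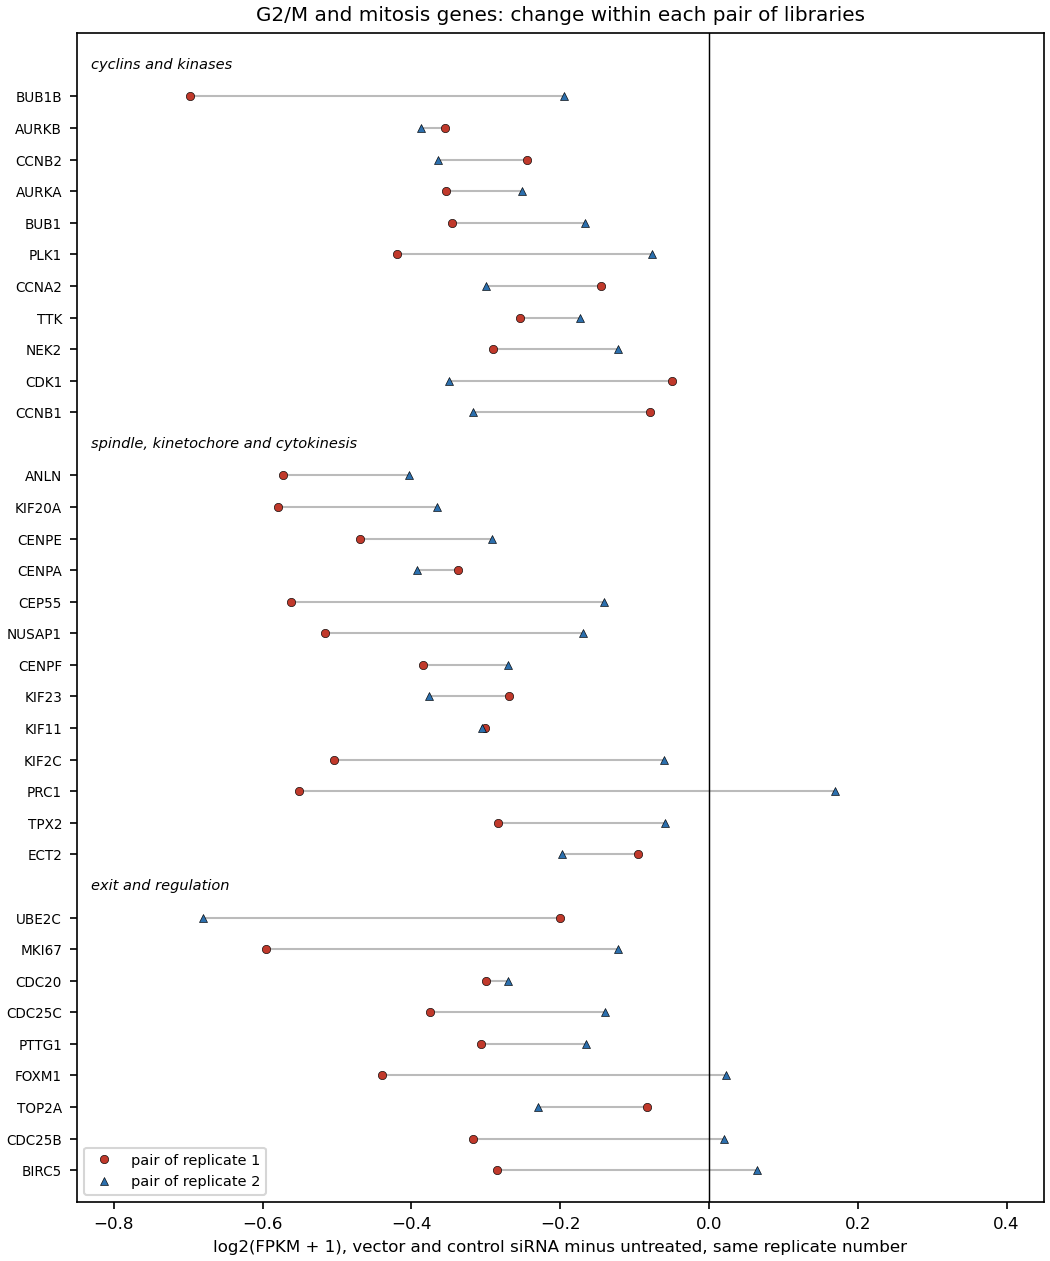
Difference in log2(FPKM + 1) between the vector-control and the untreated library of the same replicate number (horizontal axis) for the 33 G2/M and mitosis genes, by role, with circles for replicate 1 and triangles for replicate 2. All circles lie left of 0, and the triangles of PRC1, FOXM1, CDC25B and BIRC5 lie right of it.

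The promoters of mitotic genes often carry the cell cycle homology region, which DREAM and MYB-MuvB complexes bind, close to the start site. Its letters, TTTGAA on either strand, were in the windows of 17 of 27 matched G2/M genes, or 54.1% of 37 windows against 15.2% of all windows. At least 2 copies of CCAAT, the NF-Y box, on either strand were in 15 of the 27 genes, or 43.2% of windows against 10.8%. Stretches of 6 of these 17 genes, all named above, are given with their strand and with TTTGAA in capitals. KIF20A and AURKB, also named above, were not among the 17 genes.
ANLN, chr7:36389806-36389861, plus strand: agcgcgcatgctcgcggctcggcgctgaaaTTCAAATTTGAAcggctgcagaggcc
BUB1B, chr15:40161016-40161068, plus strand: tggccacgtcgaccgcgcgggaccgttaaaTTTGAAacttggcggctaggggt
CENPA, chr2:26786008-26786055, plus strand: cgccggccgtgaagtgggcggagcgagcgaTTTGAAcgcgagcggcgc
KIF23, chr15:69414264-69414329, plus strand: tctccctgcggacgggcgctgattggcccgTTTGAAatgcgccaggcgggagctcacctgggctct
CCNB2, chr15:59105087-59105145, plus strand: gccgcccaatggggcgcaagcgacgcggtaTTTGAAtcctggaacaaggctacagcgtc
MKI67, chr10:128126424-128126500, minus strand: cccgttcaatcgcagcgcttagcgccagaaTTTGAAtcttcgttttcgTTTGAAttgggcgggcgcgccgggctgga
In ANLN the capitals are a match on each strand, side by side, and in MKI67 there are 2 matches on the gene's strand. The matches begin at 18 bases before the start in CENPA, 23 in BUB1B, 29 in CCNB2 and 55 in KIF23. Binding was not measured.

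Genes of G1/S and DNA replication showed a smaller shift of the same sign, with 23 of 26 lower. Of them 10 were lower without overlap, against 16.5% of all genes. The median was -0.11. It was -0.28 in the pair of replicate 1 and -0.03 in the pair of replicate 2, so it rests on the pair of replicate 1. CDC6, a loader of the replicative helicase, had 75.3 and 59.7 FPKM in untreated and 53.2 and 50.1 FPKM in vector-control cells, and E2F1, the activator of S phase genes, 23.9 and 25.7 against 16.6 and 20.3 FPKM. PCNA, the sliding clamp and itself a p53 target, had 269 and 304 against 314 and 294 FPKM. CCND1 (cyclin D1) went the other way, with 97.3 and 107 FPKM in untreated and 135 and 245 FPKM in vector-control cells, a log2 difference of 0.83 (SE 0.22, adjusted p = 0.747).

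Stress genes of the integrated stress response and the endoplasmic reticulum were higher, with 23 of 25 up in level and 15 without overlap, against 12.8% of all genes. The median was 0.45, but it was 0.54 in the pair of replicate 1 and 0.24 in that of replicate 2. ATF3, a stress-induced repressor, had the highest log2 difference of the genes picked by the naming rule, with 10.0 and 4.74 FPKM in untreated and 23.2 and 14.5 FPKM in vector-control cells, or 1.28 (SE 0.46, adjusted p = 0.936). DDIT3 (CHOP), the pro-apoptotic factor downstream of ATF4, had 13.2 and 14.02 against 40.8 and 18.4 FPKM, and TRIB3, a pseudokinase induced by CHOP, 19.8 and 15.2 against 41.6 and 29.03 FPKM. PPP1R15A (GADD34), which restores translation, had 22.9 and 18.3 against 46.4 and 30.4 FPKM. For each of them vector-control replicate 1 was the highest of the 4 libraries. ATF4 itself differed by 0.04 (SE 0.13) and its amino acid target ASNS by 0.07 (SE 0.18). The 13 genes of the integrated stress response had a median of 0.21, with 0.30 and 0.18 in the pairs of replicates 1 and 2. All 12 chaperones and folding genes were higher, 7 without overlap, against 12.8% of all genes. Their median was 0.45, with 0.55 and 0.25 in the pairs of replicates 1 and 2. At an unadjusted p under 0.05 in limma 0 of the 12 were higher. With the replicate block 8 were, as were 696 of all 14233 genes. HSPA5 (BiP), the main chaperone of the endoplasmic reticulum, had 182 and 151 against 366 and 210.1 FPKM, and HERPUD1, a degradation factor, 31.5 and 25.2 against 66.5 and 30.6 FPKM. The pair of replicate 1 gave the larger difference in both.

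Genes of the response to foreign nucleic acids differed by small medians. Of 22 sensors and adaptors, 14 passed the filter on low values, 10 were higher and 3 were higher without overlap, against 12.8% of all genes, and the median was 0.07 (0.07 and 0.20 in the pairs of replicates 1 and 2). DDX58 (RIG-I), the sensor of viral RNA ends, had 2.22 and 2.22 FPKM in untreated and 3.60 and 3.37 FPKM in vector-control cells, or 0.48 (SE 0.25, adjusted p = 0.977), and EIF2AK2 (PKR) differed by -0.02 (SE 0.16). Of 31 interferon-stimulated genes 23 were tested and 14 were higher. Without overlap 6 were higher, against 12.8% of all genes, and 2 lower, against 16.5%. The median of the 23 was 0.09 (0.10 and 0.04 in the pairs of replicates 1 and 2), and 0.14 without vector-control replicate 2. IFIT1 had 3.02 and 1.801 against 3.31 and 1.45 FPKM, ISG15 had 4.50 and 5.77 against 6.69 and 6.56 FPKM, and IFI44L was listed at 0 in all 4 libraries. The member with the smallest p was IFITM2, a barrier to virus entry, and it was lower in vector-control cells, with 19.2 and 24.8 against 13.7 and 11.7 FPKM, or -0.74 (SE 0.30, adjusted p = 0.936). In the fit without the block this was the 1 member of both lists with an unadjusted p under 0.05. With the block 2 genes of sensing and 2 interferon-stimulated genes were higher at that threshold and 1 interferon-stimulated gene was lower, where 11.3% of all genes passed it in either direction. Of the 9 retroviral restriction factors tested 3 were higher and the median was -0.02, and of 13 RNA interference factors 6 were higher with a median of -0.04. The sign of both medians turned with the libraries used. In the pairs of replicates 1 and 2 they were -0.09 and 0.02 for restriction factors and -0.09 and 0.04 for RNA interference. Without untreated replicate 1 or vector-control replicate 1 the median of RNA interference factors was 0.04 and 0.14, without untreated replicate 2 it was 0.09, and without vector-control replicate 2 it was -0.13. That of restriction factors was 0.05 without untreated replicate 1 and -0.13 without untreated replicate 2. TNRC6B, a partner of Argonaute in silencing, had 4.59 and 3.47 against 5.77 and 6.40 FPKM, whereas AGO2, the slicing Argonaute, had 13.6 and 16.0 against 17.0 and 16.4 FPKM.

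Inflammatory cytokines turned between the pairs. Of the 10 tested, 9 were higher in the pair of replicate 1 and 2 in the pair of replicate 2, with medians of 0.94 and -0.95. IL8, a neutrophil chemokine, had 3.11 and 6.46 FPKM in untreated and 10.3 and 1.00 FPKM in vector-control replicates 1 and 2. CXCL1 had 6.74 and 12.8 against 14.5 and 2.33 FPKM, and CXCL5 37.3 and 66.5 against 71.0 and 33.7 FPKM. The replicates of each group thus lay farther apart than the group means. Feedback genes of NF-kB were steadier, with 9 of 11 higher and a median of 0.43. Of them 7 were higher without overlap, against 12.8% of all genes. RELB, a subunit of the non-canonical pathway, had 10.0 and 7.73 against 17.0 and 16.4 FPKM, or 0.85 (SE 0.26, adjusted p = 0.915), and its partner NFKB2 35.6 and 26.7 against 45.1 and 46.1 FPKM. NFKBIA, the inhibitor induced first, differed by 0.26 (SE 0.18).

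**Figure D4:**
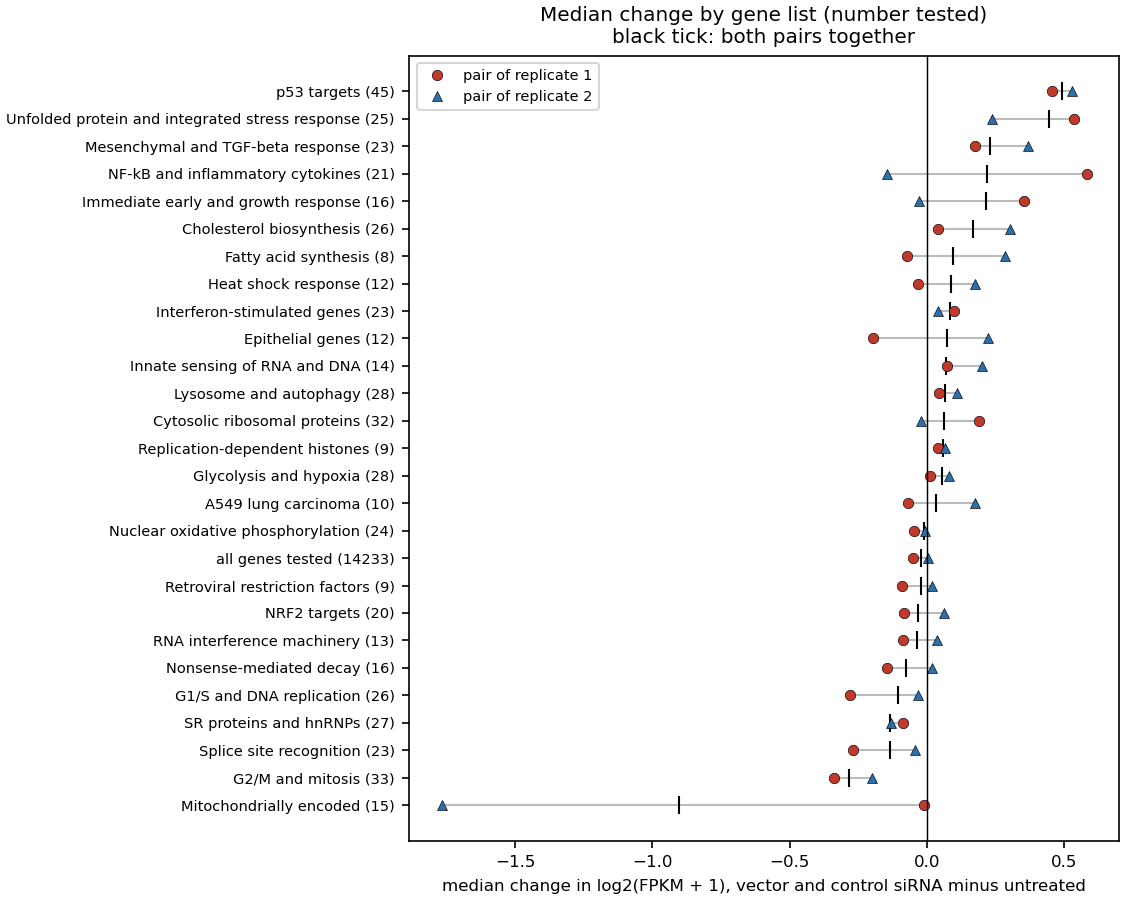
Median difference in log2(FPKM + 1) of each gene list with at least 8 genes tested (horizontal axis), with the number tested in brackets, a circle for the pair of replicate 1, a triangle for the pair of replicate 2 and a black tick for both together. p53 targets (0.46 and 0.53) and G2/M genes (-0.34 and -0.20) lie on 1 side of 0 in both pairs. So do other lists, among them stress response genes (0.54 and 0.24) and SR proteins and hnRNPs (-0.09 and -0.13). The NF-kB list (0.58 and -0.14) changes sign between the pairs. Mitochondrially encoded genes (-0.01 and -1.77) keep their sign but differ in size.

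The genes with the largest positive differences included some of matrix and cytoskeleton. By the naming rule the top 12 included ATF3, FDXR, ACTA2, PAPPA, WIPI1, GDF15, ANKRD1, CDKN1A, BTG2, OSBP2 and TECPR2. ACTA2, smooth muscle actin, had 10.1 and 3.68 against 14.7 and 14.6 FPKM, and PAPPA, a protease that frees insulin-like growth factors, 21.8 and 13.7 against 33.4 and 43.7 FPKM. ANKRD1, a target of YAP signalling, had 3.48 and 4.08 against 6.06 and 11.9 FPKM and reached 13.1 to 80.0 FPKM in the other 10 libraries. TECPR2, an autophagy-related protein of secretory exit sites, had 4.59 and 4.80 against 9.44 and 10.9 FPKM, and 4.28 to 6.68 FPKM in the other 10. WIPI1, a phosphoinositide reader of early autophagosomes, had 3.74 and 3.15 against 10.6 and 6.29 FPKM, and OSBP2, a sterol-binding protein, 2.98 and 3.75 against 5.69 and 10.1 FPKM. In the list of mesenchymal and TGF-beta response genes 21 of 23 were higher, 9 without overlap, against 12.8% of all genes. At an unadjusted p under 0.05 in limma 4 were higher, against 2.52% of all genes. With the block 8 were higher at that threshold, as were 696 of all 14233 genes. The median of the list was 0.23, or 0.18 and 0.37 in the pairs of replicates 1 and 2, and 0.42 without vector-control replicate 1. ITGA5, the fibronectin receptor subunit, had 13.6 and 11.6 against 16.7 and 18.4 FPKM. FN1 (24.1 and 59.1 against 20.1 and 87.0 FPKM) and SPARC (2.86 and 29.2 against 3.99 and 45.9 FPKM) differed far more between replicate numbers than between groups. Epithelial genes had a median of 0.07, and its sign turned between the pairs (-0.20 and 0.22) and without untreated replicate 2 (-0.05). Of the 12 tested 0 were free of overlap, where 12.8% of all genes were higher without overlap and 16.5% lower.

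Genes of lipid synthesis and of the lysosome had small medians. Of 26 cholesterol genes 23 were higher and 8 were higher without overlap, against 12.8% of all genes. Their median was 0.17, but 0.04 in the pair of replicate 1 and 0.30 in the pair of replicate 2. Of 28 lysosome and autophagy genes 17 were higher and 9 were higher without overlap, against the same 12.8%, with a median of 0.06. SQSTM1 (p62), the cargo receptor of autophagy, had 393 and 419 against 542 and 644 FPKM, or 0.54 (SE 0.10, adjusted p = 0.373, 0.0919 with the block). GLA, lysosomal alpha-galactosidase, was lower, with 149 and 161 against 119.7 and 125 FPKM. Other lists with medians within 0.1 of 0 included the NRF2 targets (8 of 20 higher, median -0.03), heat shock genes (10 of 12, 0.09), glycolysis and hypoxia (19 of 28, 0.06), nuclear oxidative phosphorylation (12 of 24, -0.01) and nonsense-mediated decay factors (3 of 16, -0.08). Of 32 cytosolic ribosomal proteins 26 were higher, but the median was 0.06 and only 14 were higher in the pair of replicate 2 against 31 in that of replicate 1.

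Transcripts of the mitochondrial genome had the lowest median of the lists plotted, and it rests on the pair of replicate 2. All 15 were lower by group mean, 8 of them without overlap, against 16.5% of all genes. Their median was -0.90, with -0.01 in the pair of replicate 1 and -1.77 in that of replicate 2. MT-ND2, a complex I subunit, had 2157 and 3184 FPKM in untreated and 1868 and 748 FPKM in vector-control cells. MT-CO1, a complex IV subunit, had 3577 and 5883 against 3670 and 2225 FPKM. Without vector-control replicate 2 the median of the list was -0.35, and in the pair of replicate 1 alone 8 of 15 were lower. In the other 10 libraries the mitochondrial share of summed FPKM was 6.43% to 9.24%, so vector-control replicate 2 (3.42%) and untreated replicate 2 (10.4%) lay outside that range on opposite sides. What set these libraries apart was not tested. The nuclear copies MTND1P23 and MTND2P28, which share sequence with the mitochondrial genome and therefore reads, moved in the same way, with 249 and 409 against 207 and 81.3 FPKM for MTND2P28. Of the 12 genes with the lowest differences, MT-ND1, MT-ND2, MT-ND4, MT-CYB and these copies were of this kind. The others were CTD-2537I9.12, RP5-857K21.11, RP11-192N10.2, RP11-159D12.5, PIF1 and ZNF431. PIF1, a helicase of telomeres and replication forks, had 20.8 and 46.1 against 12.8 and 15.0 FPKM, and ZNF431, a zinc finger repressor, 6.18 and 9.02 against 2.69 and 3.72 FPKM.

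**Figure D5:**
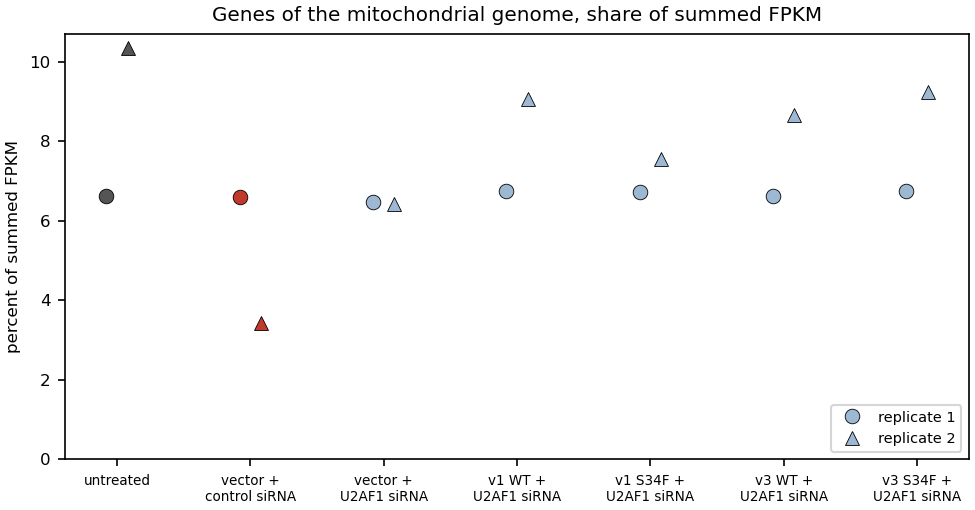
Share of the library's summed FPKM, in percent from 0, that came from genes of the mitochondrial genome in each of the 14 libraries, with circles for replicate 1 and triangles for replicate 2. Untreated replicate 2 (10.4%) and vector-control replicate 2 (3.42%) were the highest and the lowest library.

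Splicing factors, the subject of the wider study, were slightly lower in vector-control cells. Of 27 SR proteins and hnRNPs 22 were lower and 10 lower without overlap, against 16.5% of all genes, with a median of -0.13. SRSF11 had 133 and 122 FPKM in untreated and 99.4 and 91.0 FPKM in vector-control cells, or -0.42 (SE 0.10, adjusted p = 0.747), and HNRNPD, an AU-rich element binding protein, 337 and 274 against 233 and 240.1 FPKM. Of 23 genes of splice site recognition 18 were lower and 8 lower without overlap, against the same 16.5%. Their median was -0.14, with -0.27 in the pair of replicate 1 and -0.04 in that of replicate 2. RBM39, a relative of U2AF2, had 207 and 201 against 165 and 166 FPKM, and U2AF2 differed by -0.09 (SE 0.14).

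Isoform usage, the percentage of a gene's summed FPKM that falls to one isoform, was tested for 41727 isoforms of 11666 genes. By limma 3 isoforms were used more in vector-control cells (0.00719%) and 1 less (0.0024%) at an adjusted p under 0.05, and 2145 (5.14%) had an unadjusted p under 0.05, of which 1210 (2.9% of those tested) were used more and 935 (2.24%) less. With the replicate block 1 isoform was called, used more (0.0024%), and 0 used less (0.0%). That isoform was ENST00000527943 of ABI3BP, an extracellular matrix protein, at 0% and 0% in untreated and 41.9% and 33.5% in vector-control cells. It rests on low values, since the gene had 0.335 and 1.51 FPKM in untreated and 0.506 and 1.21 FPKM in vector-control cells. ENST00000395477 of WNK2, a kinase of the WNK family, went from 0.000801% and 0.00197% to 23.4% and 25.2% in a gene of 6.63 to 10.1 FPKM (adjusted p = 0.021, 0.057 with the block), and its usage in the other 10 libraries did not exceed 9.04%. ENST00000417914 of PTPN20B went from 51.7% and 56.1% to 16.0% and 9.02% in a gene of 2.39 to 4.28 FPKM (adjusted p = 0.0199, 0.057 with the block), and the fourth isoform belonged to PRKY (adjusted p = 0.0438, 0.132 with the block). PTPN20B and PRKY have close copies elsewhere in the genome, so their reads may be split between copies. Leaving out a single library moved the 4 calls to between 7 (without vector-control replicate 2) and 27 (without vector-control replicate 1), and to 9 and 18 without untreated replicates 1 and 2.

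Shifts of usage in some better expressed genes did not pass the adjustment. In WDR5, a subunit of histone methyltransferase complexes with 36.1 to 40.7 FPKM, ENST00000358625 made up 47.7% and 47.3% in untreated and 69.6% and 82.1% in vector-control cells, or 28.3 percentage points (SE 8.75, adjusted p = 0.839). In NTN4, a netrin of the basement membrane with 25.6 to 45.5 FPKM, ENST00000344911 made up 64.5% and 60.3% against 46.2% and 21.9%. In RNF25, a ubiquitin ligase, the retained-intron transcript ENST00000474339 made up 53.9% and 44.4% against 18.9% and 24.8%. By transcript type, 3294 of 4946 retained-intron isoforms were used less in vector-control cells and 1652 more, with a median of -1.69 points. That median was -0.24 points in the pair of replicate 1 and -2.74 in that of replicate 2, the pair in which the mitochondrial share also differed, and the part of that share in this result was not tested. Of the retained-intron isoforms 137 were used less and 76 more at an unadjusted p under 0.05 in limma, against 2.24% and 2.9% of all isoforms. Among 24788 protein-coding isoforms 11800 were used less and 12982 more. Isoforms subject to nonsense-mediated decay were near even in number, with 1402 more and 1309 less used of 2711 tested. At an unadjusted p under 0.05 in limma 81 were used more and 46 less, against 2.9% and 2.24% of all isoforms. Their mean difference was -0.35 points in the pair of replicate 1 and 1.22 in that of replicate 2.

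The other 5 groups also received vector or construct by virus and a siRNA, here against U2AF1, and share the untreated libraries with the comparison above. Against the same 2 untreated libraries, the mean of all 6 treated groups called 187 genes higher (1.31%) and 197 lower (1.38%) by limma at an adjusted p under 0.05, and with the replicate block 668 higher (4.69%) and 796 lower (5.59%). Without the block, of the p53 targets 23 of 45 were called higher and 0 lower, and of the G2/M genes 13 of 33 were called lower and 0 higher. CDKN1A was 95.2 to 186 FPKM and GDF15 63.2 to 113 FPKM in the other 10 libraries, so every one of them was above both untreated libraries, and the differences for the mean of 6 groups were 1.46 (SE 0.11, adjusted p = 0.00066) and 1.77 (SE 0.18, adjusted p = 0.00161). CDKN1A stood at 96.6 FPKM on average with the vector and the siRNA against U2AF1, and at 95.5 FPKM in vector-control cells. GDF15, in contrast, was above both vector-control libraries in each of the other 10 libraries. The median log2 difference of the p53 targets was 0.76 for the mean of 6 groups and 0.49 for vector-control cells. These counts lean on the untreated libraries, since leaving out replicate 1 of them brought the total from 384 to 14, and leaving out replicate 2 brought it to 58.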

How the data were processed

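RNA-seq libraries of A549 cells were used as deposited, 1 table per library. The submitters' processing notes name Trimmomatic 0.30, TopHat2 2.0.12 and the build GRCh37. The quantifier and the annotation were not given in the sources used here. According to the columns, per the file headers, the deposited tables hold an FPKM with confidence bounds and a coverage value for each of 195553 isoforms, and relative depth was computed from coverage over FPKM, since the number of reads is unknown. Gene FPKM was summed over the isoforms of each of 57756 genes. Genes with a mean of at least 1 FPKM over the 14 libraries (14244) and no failed estimate (14 genes had one) entered limma 3.58.1 (R 4.3.3, trended prior variance) as log2(FPKM + 1), a scale on which changes of low genes are understated. The model had a mean for each of 7 groups, with 7 residual and 3.92 prior degrees of freedom, and p-values were adjusted by Benjamini-Hochberg over all features. Usage in percent was tested likewise for isoforms with a mean of 5% to 95%. Transcript types came from GENCODE release 29 by identifier (39026 isoforms matched). Without a stated strand, overlapping genes can share reads.

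Replicate numbers come from the labels. Deviations of same-numbered libraries from their group means were correlated above 0.1 in 21 of 21 pairs of groups (0.16 to 0.57, and 0.20 for untreated with vector-control cells), so the replicate block counts as a pairing. Members, gene lists and the naming rule were chosen with earlier results of these data known. Named were CDKN1A, GDF15, U2AF1 and U2AF2, all called features, the 12 highest and 12 lowest genes (mean of at least 5 FPKM, longest isoform of at least 300 bases, unadjusted p under 0.05, no overlap), every p53 target and up to 6 members of each other list by p. For usage they were all called isoforms and the 8 largest gains and losses (unadjusted p under 0.01, no overlap). Other members are named as examples chosen after their values were seen. Alternatives were other scalings, filters, pseudocounts and left-out libraries. The fit of gene expression was checked on simulated data without a replicate effect and with changes larger than most reported here. That check does not cover small differences or isoform usage. Some genes picked by the rule are not reported here.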

Additional observations from a re-analysis of the deposited data

How the results depend on the processing

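The 0 genes called between vector-control and untreated cells became 2 with the replicate block (CDKN1A and GDF15), 19 with no filter on low values, 2 with a mean of at least 1 FPKM over the 4 libraries and 1 with these libraries alone, and stayed at 0 with a pseudocount of 0.1, quantile normalization or upper quartile scaling. Leaving out each library in turn gave 2 to 7 calls, 7 without vector-control replicate 1, 5 without vector-control replicate 2 and 2 without either untreated library. The 4 isoforms called in usage became 1 with the replicate block, 1 in genes with a mean of at least 5 FPKM, and 0 after an arcsine square root transform or with the 4 libraries alone, and 7 to 27 without 1 library. For the mean of the 6 treated groups the 384 calls became 1464 with the replicate block, and 14 to 58 without 1 untreated library. The block ended the calls of the WNK2, PTPN20B and PRKY isoforms, made those of CDKN1A and GDF15, and changed no other call of a named gene or isoform. FDXR, PHLDA3 and CCND1 were each called in 1 of the 11 alternatives, other than the block. The causes were not tested.

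The medians of p53 targets (0.43 to 0.51) and of G2/M genes (-0.32 to -0.24) kept their sign in all alternatives. This was not particular to them. Other medians that kept their sign included those of stress response genes (0.33 to 0.58), mesenchymal genes (0.18 to 0.42) and SR proteins and hnRNPs (-0.15 to -0.11). Leaving out 1 library turned the sign of other medians, among them those of glycolysis and hypoxia (-0.0104 to 0.0729), replication-dependent histones (-0.11 to 0.26), NF-kB (down to -0.0169), immediate early genes (-0.0695 to 0.49), RNA interference (up to 0.14), restriction factors (up to 0.0462), NRF2 targets (up to 0.0494), epithelial genes (down to -0.0489) and oxidative phosphorylation (up to 0.0763). It also turned for the log2 differences of U2AF2 (-0.28 to 0.11), CCNG2 (-0.12 to 0.54), EPHA2 (-0.063 to 0.29), SCO2 (-0.0745 to 0.28), GLS2 (-0.48 to 0.001), TGFA (-0.81 to 0.32), PRKAB1 (-0.20 to 0.10), CPT1C (-0.18 to 0.27) and PIDD (-0.42 to 0.37), and MUC5AC (-0.66 to 0.26). The same held for the G2/M genes PRC1 (-0.40 to 0.0177), CDC25B (-0.37 to 0.0689) and BIRC5 (-0.37 to 0.15), and for PCNA (-0.0032 to 0.17), EIF2AK2 (-0.26 to 0.21), ATF4 (-0.0861 to 0.16), IL8 (-1.47 to 1.03), CXCL1 (-1.64 to 0.58), CXCL5 (-0.55 to 0.50), FN1 (-0.88 to 1.18), SPARC (-1.11 to 2.12) and IFIT1 (-0.45 to 0.36, and 0.0305 with quantile normalization). With 2 libraries a group and the number of reads unknown, differences of single genes below about the replicate spread could not be resolved.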
